A study of Mus musculus with 12 samples.

Results

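Male C57BL6 mice ate a diet in which fat gave 10% of the energy, either plain (low-fat control) or with 0.5% (w/w) of MSX, a food-grade maple syrup extract enriched in phenols (low-fat MSX), and their livers are compared here. Each group had 3 arrays, so that 6 of the 12 arrays in the series enter the comparison, and it was described across all 22180 genes that a probe set with 1 gene symbol could name. The other 6 arrays came from the same strain and sex on a high-fat diet in which fat gave 45% of the energy, as 3 high-fat control and 3 high-fat MSX arrays. All mice ate freely for 12 weeks, from 6 to 18 weeks of age. Arrays of one group are biological replicates per the labels, which do not say whether an array held RNA of 1 mouse or of a pool. P-values here measure differences against the spread between such arrays, which was estimated from all 12 arrays, the high-fat ones included.

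The liver switches between burning and making fat with its food supply. In fasting or when fatty acids arrive in excess, the nuclear receptor PPAR alpha raises genes that take up, activate and oxidise fatty acids, among them the acyl-CoA thioesterases, the Cyp4a fatty acid hydroxylases and the hormone Fgf21. In the fed state, insulin and sugar act through the transcription factors SREBP and ChREBP on the genes of fatty acid synthesis, and a low sterol content of the membranes activates SREBP on the genes of cholesterol synthesis.

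The values are log2 intensities of probe sets, and a fold change below is the low-fat MSX mean minus the low-fat control mean on that scale, with its moderated standard error. Medians of the 6 low-fat arrays lay between 4.69 and 4.75, and correlations between them ranged from 0.973 to 0.984. The labelled tissue was checked against its markers. The 9 measured hepatocyte markers had a mean level of 11.67 to 11.81 in the control arrays and 11.80 to 11.89 in the MSX arrays. Their median fold change was 0.01.

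The extract went with lower levels of fatty acid oxidation genes and other PPAR alpha targets. Genes of fatty acid and sterol synthesis were higher. Fabp5, a fatty acid binding protein gene in no list, also rose. Of 22180 genes, 35 passed an adjusted p under 0.05, which is 0.158% of those tested. Among them 14 rose (0.0631%) and 21 fell (0.0947%). In the counts of list members below, rose and fell mean past the threshold and are to be read beside these shares. In 6 lists of fatty acid oxidation and other PPAR alpha targets, with 79 measured genes, 9 fell and 0 rose. In 4 lists of lipid synthesis and sterol sensing, with 51 measured genes, 8 rose and 0 fell. The lists were chosen with earlier results of these data known, so that these counts are a description. The 3 control and the 3 MSX arrays did not overlap in any of the 35. Such a separation was common among all genes, with 7.13% not overlapping and higher and 6.73% not overlapping and lower. Changes of called genes ranged from 1.56-fold to 3.90-fold, and the median over all genes was −0.0014.

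The number of called genes depended on single arrays. Leaving out replicate 1, 2 or 3 of the low-fat control gave 10, 6 and 9 genes, and leaving out replicate 1, 2 or 3 of low-fat MSX gave 12, 14 and 28. Rising and falling genes were not lost alike: 2 genes rose and 12 fell without MSX replicate 2, whereas 17 rose and 11 fell without MSX replicate 3. Acot1, Cyp4a31, Slc27a1, Cyp51 and Fabp5 passed the threshold in each of the 6 cases, and 11 of the 35 passed it in 0 of them.

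**Figure D1:**
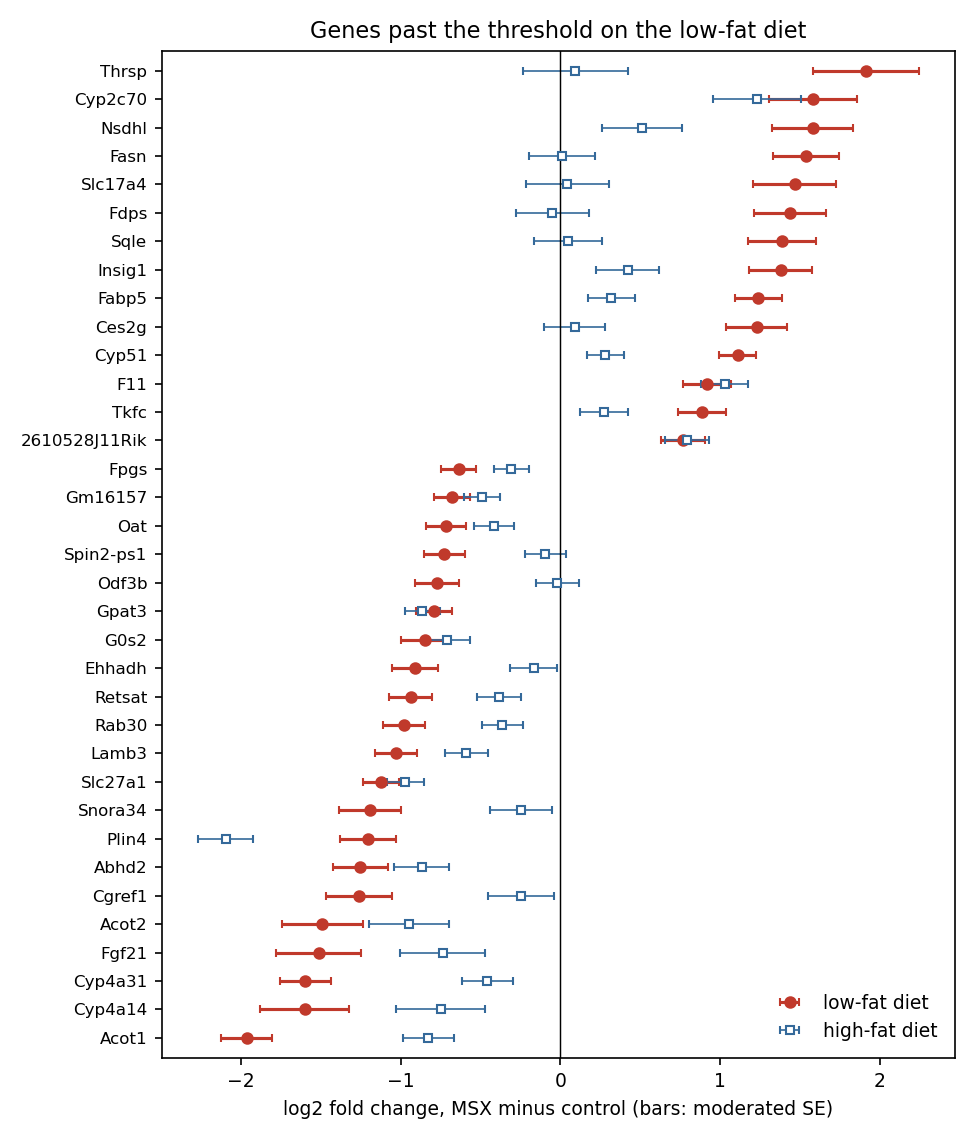
Log2 fold change (MSX minus control, x axis) of the 35 genes that passed the threshold on the low-fat diet, with filled circles for the low-fat diet, open squares for the high-fat diet and bars for the moderated SE. The low-fat values run from −1.96 (Acot1) to 1.92 (Thrsp), and 31 of the 35 genes had a smaller change on the high-fat diet.

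The largest fall was that of Acot1, a cytosolic thioesterase that splits long-chain acyl-CoA into free fatty acid and coenzyme A. Its log2 level was 9.06, 9.0 and 8.83 in the 3 low-fat control arrays and 7.03, 6.87 and 7.10 in the 3 low-fat MSX arrays. The gap between the groups was many times the spread within either. The fold change was −1.96 ± 0.16 (SE), or 3.90-fold lower, with an adjusted p of 0.000286. The control arrays also lay above all 6 high-fat arrays in this gene.

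Acot2, the mitochondrial enzyme of the same family, was at 10.28, 10.24 and 10.30 in the controls and at 8.81, 9.47 and 8.08 with MSX. The controls were nearly identical, while the MSX arrays spread over more than 1 log2 unit. The fold change was −1.49 ± 0.25 (SE), adjusted p = 0.0442, and the call was kept in 2 of the 6 cases with an array left out. Both genes lie in a cluster of near-identical copies on chromosome 12, and how far their probe sets pick up each other's transcripts was not tested.

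Acot3 and Acot4 are peroxisomal members of that cluster, and neither passed the threshold. Acot3 was at 8.57, 9.02 and 7.93 in the controls and 7.55, 7.93 and 5.96 with MSX, with a value shared between the groups and a fold change of −1.36 ± 0.42 (SE). Acot4 did not overlap between groups, with −0.66 ± 0.16 (SE). Over the 10 measured thioesterases, 2 fell, 0 rose and the median fold change was −0.06, and the other 6 measured members had values between −0.08 and 0.10.

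The 250 bases before the transcription start of both called thioesterase genes are shown because the copies fell together. They come from RefSeq on GRCm38.p6 and are given 5′ to 3′ on the gene's strand, with a CCAAT box in capitals (CCAAT on the gene's strand, ATTGG where it is on the other strand). Acot1 lies on the plus strand with its window at chr12:84009252-84009501, and Acot2 on the plus strand with its window at chr12:83987611-83987860.
Acot1: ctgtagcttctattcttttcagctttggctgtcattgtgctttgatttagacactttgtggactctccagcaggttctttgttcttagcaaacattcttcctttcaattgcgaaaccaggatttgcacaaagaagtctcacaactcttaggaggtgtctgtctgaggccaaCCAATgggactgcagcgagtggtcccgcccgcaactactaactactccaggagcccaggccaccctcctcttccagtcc
Acot2: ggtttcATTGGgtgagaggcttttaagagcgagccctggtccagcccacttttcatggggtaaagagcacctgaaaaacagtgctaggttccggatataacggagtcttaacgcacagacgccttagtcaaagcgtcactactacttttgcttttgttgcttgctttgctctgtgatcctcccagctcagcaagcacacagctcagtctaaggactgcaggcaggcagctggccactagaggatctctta
Each window held 1 box, on opposite strands and at different distances from the start. Among the falling genes, 17 of 21 had a window and 9 of these 17 held the box. A DR1 element, the kind of site that PPAR alpha binds with RXR, was searched as 2 copies of AGGNCA with 1 base between them on both strands. It was found in 0.400% of all 27025 genes with a window and in 0 of the 17 falling genes, which says only that these letters are not in this stretch.

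Cyp4a14 and Cyp4a31 encode microsomal cytochromes that hydroxylate fatty acids at the end of the chain. Cyp4a31 was at 10.05, 10.15 and 9.62 in the controls and at 8.55, 8.08 and 8.39 with MSX. The fold change was −1.60 ± 0.16 (SE), adjusted p = 0.00137, kept in 6 of 6 cases with an array left out. Cyp4a14 was at 13.07, 12.94 and 12.73 in the controls and at 11.65, 11.36 and 10.94 with MSX, a change of −1.60 ± 0.28 (SE) with an adjusted p of 0.0492 that was kept in 0 of the 6 cases. The Cyp4a genes are close copies of each other, so that their probe sets may share signal.

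The other microsomal genes of that list did not all lie on the same side. Aldh3a2, which oxidises fatty aldehydes, had −0.48 ± 0.16 (SE), and Cyp4f14, a hydroxylase of leukotrienes and fatty acids, had 0.61 ± 0.19 (SE). Neither passed the threshold (adjusted p = 0.434 and 0.406). Of the 7 measured members, 2 fell and 0 rose, with a median of −0.37.

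Ehhadh is the bifunctional enzyme of the peroxisomal oxidation spiral. It was at 11.56, 11.05 and 11.06 in the controls and at 10.31, 10.37 and 10.26 with MSX. The MSX arrays agreed within 0.06 (SD, n = 3) and control replicate 1 stood above the other two. The fold change was −0.91 ± 0.15 (SE), adjusted p = 0.0338, kept in 0 of the 6 cases. It was the only called gene of 17 measured in the peroxisomal list, whose median was −0.32 with 13 members below 0.

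Within the peroxisomal list, Pex11a, which promotes division of peroxisomes, had −0.59 ± 0.12 (SE) and the thiolase Acaa1b had −0.51 ± 0.11 (SE), both short of the threshold (adjusted p = 0.111 and 0.122). Nudt7, a peroxisomal hydrolase of coenzyme A, was on the other side, with 10.33, 10.37 and 10.45 in the controls and 11.03, 10.85 and 11.63 with MSX. Its change of 0.79 ± 0.19 (SE) did not pass (adjusted p = 0.188). Nudt7 was also in the list of male-biased liver genes described further on.

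No gene of mitochondrial beta oxidation was called, and all 17 measured members had a fold change below 0, against 50.3% of all genes. The median was −0.26, a smaller size than in the peroxisomal list. Eci1, an isomerase for unsaturated fatty acids, had −0.50 ± 0.12 (SE), and Acadm, the medium-chain acyl-CoA dehydrogenase, had −0.47 ± 0.12 (SE). Cpt1a, which controls the entry of fatty acids into mitochondria, was at 11.65, 11.76 and 11.67 in the controls and 11.42, 11.37 and 11.19 with MSX. The groups did not overlap, and the change was −0.37 ± 0.12 (SE) with an adjusted p of 0.419. Hadha, a subunit of the trifunctional protein, also had −0.37 (SE 0.10, adjusted p = 0.298). Group separation without a call held for 11 of these 17 genes on the lower side, beside the 6.73% of all genes.

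Fgf21 is a hormone that the liver secretes in fasting and on ketogenic diets. It was at 7.49, 7.04 and 8.06 in the controls and at 6.09, 6.43 and 5.54 with MSX. The SD was 0.51 and 0.44 in the groups (n = 3), and the lowest control stood above the highest MSX array. The change was −1.51 ± 0.27 (SE), or 2.85-fold lower, with an adjusted p of 0.0492 that was kept in 0 of the 6 cases. Pdk4, a kinase that holds back glucose oxidation, had −1.02 ± 0.25 (SE) and did not pass (adjusted p = 0.199). In the list of ketogenesis and fuel switching, 1 of 8 measured genes fell.

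**Figure D2:**
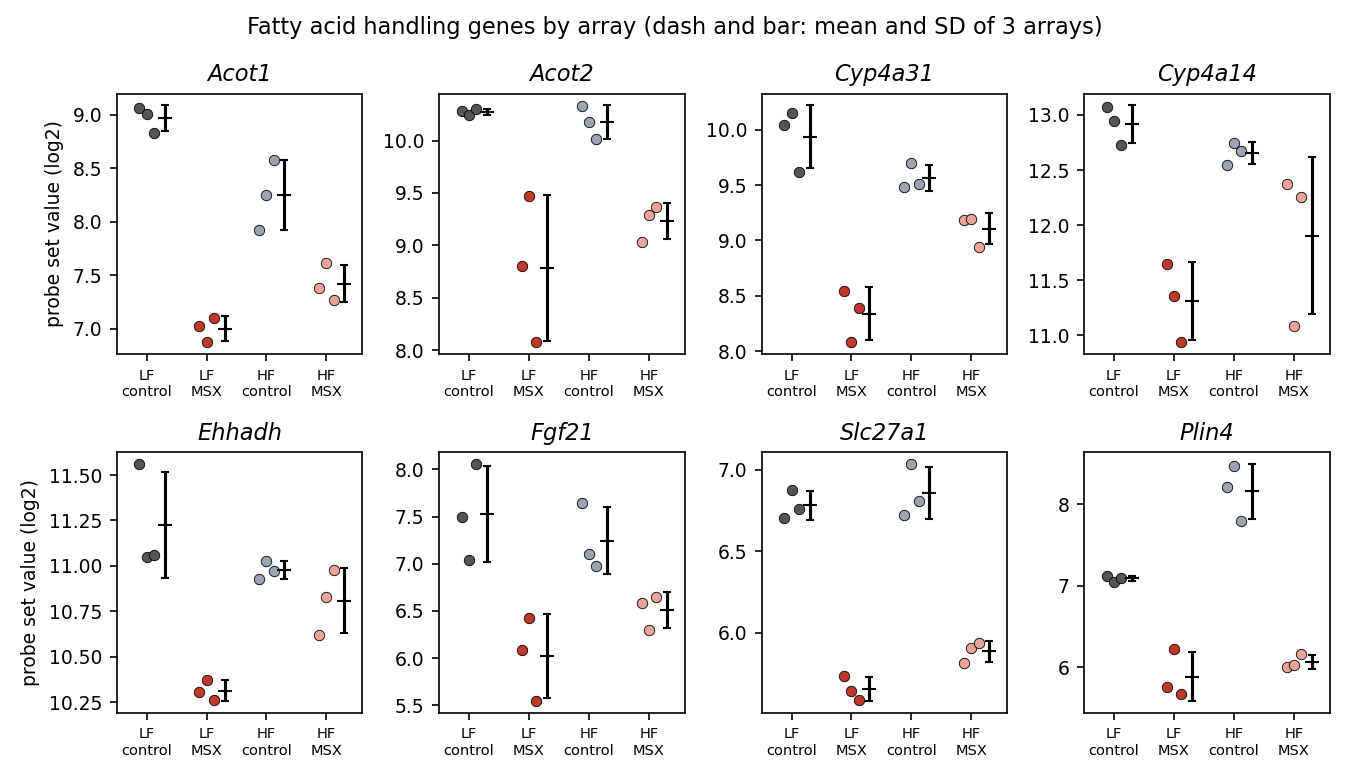
Log2 probe set value (y axis) of 8 called genes of fatty acid handling in each of the 12 arrays, with LF for low-fat and HF for high-fat and a dash and bar for the mean and SD of 3 arrays. In each gene the 3 low-fat MSX arrays lie below the 3 low-fat controls, and for Plin4 the high-fat controls (7.80 to 8.47) lie above the low-fat ones (7.05 to 7.11).

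Slc27a1, Rab30 and Plin4 were the called genes in the list of other PPAR alpha targets, where 3 of 21 measured genes fell and 0 rose. Slc27a1 encodes a fatty acid transport protein that also activates what it carries. It was at 6.70, 6.88 and 6.76 in the controls and at 5.74, 5.65 and 5.59 with MSX, a change of −1.12 ± 0.11 (SE) with an adjusted p of 0.00137. This was among the steadiest calls, kept in 6 of 6 cases. Rab30, a small GTPase of the Golgi, was at 8.19, 8.34 and 8.04 against 7.28, 7.25 and 7.09. Its change was −0.98 ± 0.13 (SE), adjusted p = 0.0127.

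Plin4, a perilipin of the droplet surface, was at 7.11, 7.05 and 7.10 in the controls and at 5.75, 6.22 and 5.67 with MSX. The change was −1.20 ± 0.17 (SE), adjusted p = 0.0175. G0s2, an inhibitor of the triglyceride lipase ATGL, went from 9.45, 9.17 and 9.13 to 8.12, 8.42 and 8.65, which was −0.85 ± 0.15 (SE), adjusted p = 0.0492. Gpat3, an acyltransferase at the first step of glycerolipid synthesis, went from 6.94, 6.84 and 6.85 to 5.97, 6.20 and 6.09, which was −0.79 ± 0.11 (SE), adjusted p = 0.0173. These 3 were the called members of a list of lipid droplet and triglyceride synthesis genes with 24 measured, where 20 lay below 0 and the median was −0.18. A second probe set gave −0.58 ± 0.14 (SE) for G0s2 and −0.41 ± 0.23 (SE) for Gpat3. With the probe sets of a gene averaged, neither passed (adjusted p = 0.0659 and 0.195). With an array left out, the Plin4 call was kept only without MSX replicate 2 and that of G0s2 only without MSX replicate 3. Gpat3 kept its call in just these cases.

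Cidec, a protein that fuses lipid droplets, had the largest fold change below 0 in that list and did not pass. It was at 7.63, 7.17 and 7.46 in the controls and 5.37, 5.72 and 6.15 with MSX, and the groups were far apart. The change of −1.68 ± 0.43 (SE) had an adjusted p of 0.240. The estimate of spread is shared by all 4 groups, and here the high-fat controls were at 9.30, 7.10 and 7.30. In the fit on the 6 low-fat arrays alone Cidec passed (adjusted p = 0.0386), and its adjusted p ranged up to 0.492 over the other alternatives, none of which called it. Cd36, a fatty acid receptor, had −0.95 ± 0.26 (SE), adjusted p = 0.278. Lpin1, a phosphatidate phosphatase of triglyceride synthesis, lay on the other side at 1.86 ± 0.37 (SE), adjusted p = 0.0842.

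Plin4 and Cidec are also abundant in adipocytes. The 6 measured adipocyte markers had a mean level of 4.60 to 4.74 in the controls and 4.62 to 4.80 with MSX, 0 of them were called, and their median change was 0.02. In RNA of whole liver, fewer cells of a type and less RNA per cell cannot be told apart.

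On the synthesis side, Fasn, which makes palmitate from malonyl-CoA, was at 7.92, 7.66 and 8.10 in the controls and at 9.37, 9.74 and 9.18 with MSX. The groups were separated by over 1 log2 unit. The change was 1.54 ± 0.21 (SE), or 2.90-fold higher, with an adjusted p of 0.0127. Thrsp, the lipogenic protein known as Spot 14, had the largest rise among the called genes. Its spread was wide, with 8.26, 8.88 and 7.74 in the controls and 9.53, 10.19 and 10.91 with MSX. Its change was 1.92 ± 0.33 (SE), adjusted p = 0.0492, kept in 1 of 6 cases.

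Tkfc, a kinase of the fructose pathway that phosphorylates glyceraldehyde, was at 9.24, 8.67 and 8.95 against 9.86, 10.02 and 9.64. It rose by 0.89 ± 0.15 (SE), adjusted p = 0.0442. Tkfc was the third called gene of the lipogenesis list. The list held 22 measured genes, of which 3 rose, 0 fell, 20 lay above 0 and 14 did not overlap between groups on the higher side, beside 7.13% of all genes. The median was 0.66.

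Other steps of fatty acid synthesis lay on the same side without passing. Acly, which makes cytosolic acetyl-CoA, had 0.52 ± 0.14 (SE), and Acaca, the acetyl-CoA carboxylase, had 0.87 ± 0.16 (SE) with an adjusted p of 0.0521, just outside the threshold. Scd1, the stearoyl-CoA desaturase, was at 12.83, 12.71 and 12.64 against 13.26, 13.38 and 13.14, which was 0.53 ± 0.14 (SE). Elovl6, an elongase, had 0.89 ± 0.24 (SE), and Me1, the malic enzyme that supplies NADPH, had 1.01 ± 0.21 (SE). Adjusted p-values of Acly, Scd1, Elovl6 and Me1 were 0.298, 0.269, 0.278 and 0.113.

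Sugar handling upstream of lipogenesis showed 1 call, Tkfc, among 8 measured genes of glycolysis and fructose, with a median of 0.42. Pklr, the liver pyruvate kinase, was at 8.83, 9.34 and 8.90 against 10.16, 10.82 and 9.87, a change of 1.26 ± 0.24 (SE) with an adjusted p of 0.0774. Khk, ketohexokinase at the entry of fructose, had 0.71 ± 0.14 (SE) with the same adjusted p of 0.0774. The glucose transporter Slc2a2 had 0.49 ± 0.15 (SE), adjusted p = 0.361.

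**Figure D3:**
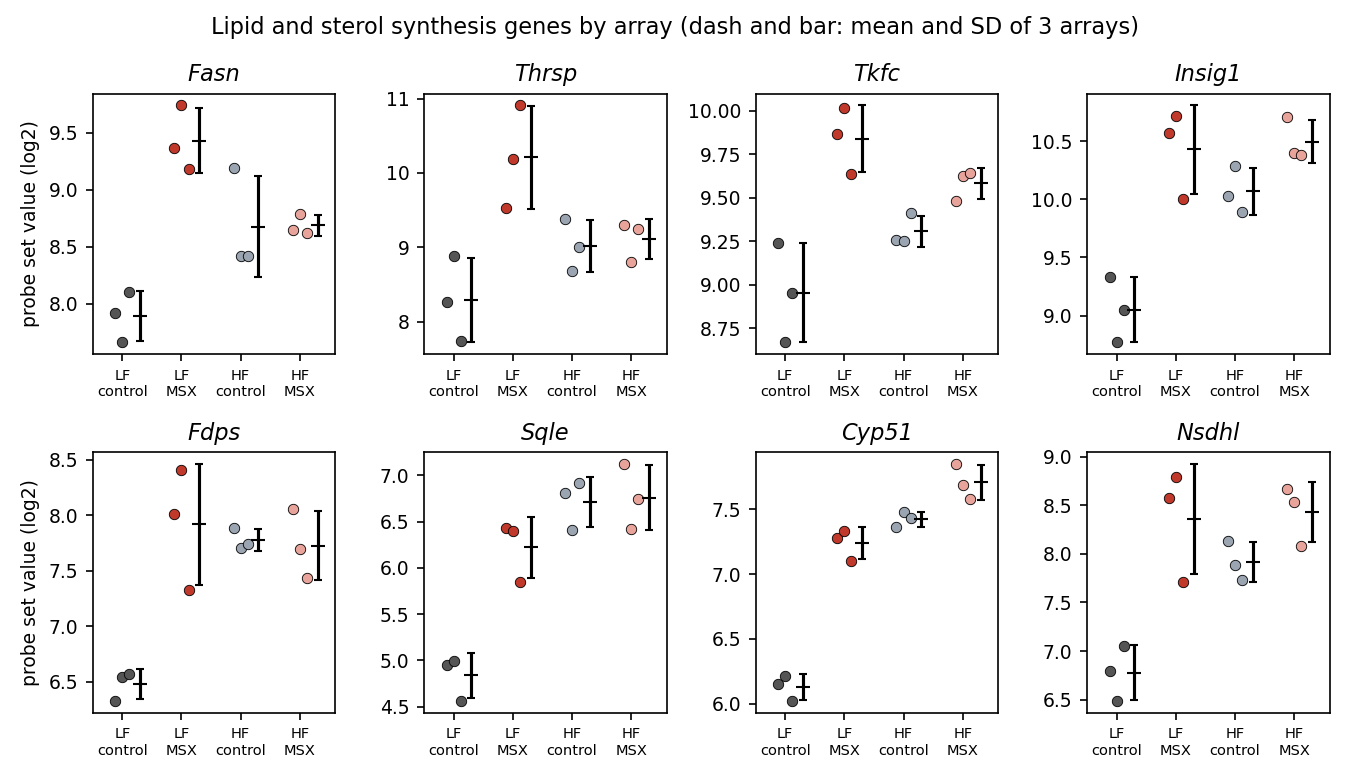
Log2 probe set value (y axis) of 8 called genes of lipid and sterol synthesis in each of the 12 arrays, with LF for low-fat and HF for high-fat and a dash and bar for the mean and SD of 3 arrays. The 3 low-fat MSX arrays lie above the 3 low-fat controls in each gene, and apart from Thrsp the low-fat controls lie below all 9 other arrays.

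In cholesterol synthesis 4 genes rose, from the mevalonate branch to the late sterol steps. Fdps, which makes farnesyl diphosphate, was at 6.32, 6.54 and 6.57 in the controls and 8.01, 8.41 and 7.33 with MSX, a change of 1.44 ± 0.23 (SE) with an adjusted p of 0.0332. Sqle, squalene epoxidase, was at 4.95, 4.99 and 4.56 against 6.43, 6.40 and 5.84, which was 1.39 ± 0.21 (SE), adjusted p = 0.0299. In both genes MSX replicate 3 was the lowest of its group and still above every control.

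Cyp51, the lanosterol demethylase, had the steadiest rise, from 6.15, 6.21 and 6.02 to 7.28, 7.33 and 7.10. The change was 1.11 ± 0.12 (SE), adjusted p = 0.00137, kept in 6 of 6 cases. Nsdhl, a dehydrogenase in the removal of sterol methyl groups, went from 6.79, 6.49 and 7.05 to 8.57, 8.79 and 7.71. Its change was 1.58 ± 0.25 (SE), adjusted p = 0.0338, kept in 1 of 6 cases.

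Of 11 measured genes between squalene and cholesterol, 3 rose, all 11 lay above 0 and the median was 0.70. In the mevalonate branch 1 of 6 rose and the median was 0.45. Msmo1, a sterol methyl oxidase, had 1.17 ± 0.23 (SE), adjusted p = 0.0774, and Dhcr7, the last reductase of the pathway, had 0.71 ± 0.15 (SE), adjusted p = 0.122. Hmgcs1, the synthase ahead of mevalonate, overlapped between groups, at 8.35, 8.12 and 8.58 against 9.09, 9.07 and 8.30 (0.47 ± 0.20 (SE), adjusted p = 0.588).

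Insig1 holds the SREBP escort protein in the endoplasmic reticulum when sterols are plentiful and is itself an SREBP target. It was at 9.33, 8.77 and 9.05 in the controls and 10.57, 10.72 and 10.0 with MSX, a change of 1.38 ± 0.20 (SE), adjusted p = 0.0173. Its relative Insig2, which in liver is lowered by insulin, lay on the other side with −0.76 ± 0.19 (SE), adjusted p = 0.238. Insig1 was the 1 called gene of 12 measured in sterol sensing and uptake, whose median was 0.12. Its call was kept without control replicate 1 or without MSX replicate 3. It was lost in the other cases with an array left out (adjusted p = 0.0638 to 0.102).

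Upstream windows of 4 rising genes are shown because SREBP works at many of its targets together with NF-Y, the factor that binds the CCAAT box. They come from RefSeq on GRCm38.p6, 250 bases before the start, 5′ to 3′ on the gene's strand, with CCAAT boxes of either strand in capitals. The windows are chr11:120824548-120824797 for Fasn and chr5:4104698-4104947 for Cyp51, both on the minus strand, and chr5:28071162-28071411 for Insig1 and chrX:72918271-72918520 for Nsdhl, both on the plus strand.
Fasn: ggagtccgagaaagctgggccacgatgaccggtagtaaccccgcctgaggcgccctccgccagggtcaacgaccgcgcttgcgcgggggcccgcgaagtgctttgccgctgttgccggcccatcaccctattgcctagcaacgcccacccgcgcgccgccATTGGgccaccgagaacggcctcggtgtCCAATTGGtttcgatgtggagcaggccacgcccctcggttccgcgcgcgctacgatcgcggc
Cyp51: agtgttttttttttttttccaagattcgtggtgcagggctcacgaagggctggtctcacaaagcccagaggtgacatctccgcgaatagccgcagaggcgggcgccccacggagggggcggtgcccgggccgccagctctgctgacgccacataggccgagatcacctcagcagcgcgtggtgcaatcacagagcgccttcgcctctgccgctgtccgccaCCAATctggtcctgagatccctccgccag
Insig1: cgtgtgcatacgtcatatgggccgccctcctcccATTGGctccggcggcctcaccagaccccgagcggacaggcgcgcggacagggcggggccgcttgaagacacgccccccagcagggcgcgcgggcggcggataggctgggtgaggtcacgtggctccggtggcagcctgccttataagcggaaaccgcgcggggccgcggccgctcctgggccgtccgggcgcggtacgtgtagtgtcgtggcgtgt
Nsdhl: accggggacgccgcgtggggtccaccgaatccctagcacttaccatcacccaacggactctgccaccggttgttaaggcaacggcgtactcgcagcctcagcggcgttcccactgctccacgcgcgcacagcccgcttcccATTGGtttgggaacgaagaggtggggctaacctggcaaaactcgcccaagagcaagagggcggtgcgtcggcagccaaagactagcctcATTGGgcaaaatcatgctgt
Fasn held 3 boxes, 2 of which overlap on opposite strands in the run of 8 capitals, Nsdhl held 2, and Cyp51 and Insig1 held 1 each. Over all 27025 genes with a window, 37.5% held at least 1 CCAAT box. It was present in 7 of the 10 rising genes that had a window and in 34 of 43 genes with a window (79.1%) from the 4 lipid synthesis lists, against 32 of 63 (50.8%) from the 6 oxidation lists. The windows do not depend on the arrays, but the members of the lists were chosen with earlier results of these data known. The SREBP element TCACNCCAC, searched on both strands, was in 1.22% of all genes, in 2 of the 43 and in 0 of the 10. It was also in 2 of the 63 from the oxidation lists and in 1 of the 17 falling genes with a window, Ehhadh.

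The transcription factors named above showed no call. Ppara was at 9.86, 9.83 and 9.94 in the controls and 9.97, 9.93 and 9.58 with MSX (−0.05 ± 0.12 (SE), adjusted p = 0.948). Rxra, its partner, had −0.16 ± 0.14 (SE), and Srebf2, the SREBP of sterol synthesis, had 0.05 ± 0.14 (SE). Mlxipl, which encodes ChREBP, had 0.16 ± 0.12 (SE). Srebf1 differed in size from these. It was at 8.16, 7.85 and 7.92 against 8.90, 8.93 and 8.64, without overlap, and its change of 0.85 ± 0.20 (SE) had an adjusted p of 0.185.

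Beyond these pathways there were 14 called genes in no list and 2 in other lists, Cyp2c70 and Oat. Cyp2c70, the mouse enzyme that makes muricholic acids, rose from 9.73, 10.28 and 10.33 to 11.47, 11.31 and 12.31, by 1.59 ± 0.28 (SE), adjusted p = 0.0492. It was the 1 called gene of 21 measured in bile acid synthesis and transport. In that list the bile salt export pump Abcb11 had 0.70 ± 0.14 (SE) and the sterol hydroxylase Cyp8b1 had −0.82 ± 0.24 (SE), with adjusted p-values of 0.0774 and 0.316. Oat, the ornithine aminotransferase, fell by 0.71 ± 0.12 (SE), from 11.97, 12.12 and 11.89 to 11.30, 11.48 and 11.06, adjusted p = 0.0492. The calls of Cyp2c70 and Oat were lost whichever low-fat array was left out, with adjusted p-values of 0.0550 to 0.192 and 0.0550 to 0.217. Oat is also a pericentral hepatocyte marker, and it was the 1 called gene in the 13 marker lists. The 11 pericentral markers had a median change of 0.03.

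Fabp5, a fatty acid binding protein better known from skin and macrophages, rose from 5.53, 5.84 and 5.72 to 6.90, 7.03 and 6.87. The change was 1.24 ± 0.15 (SE), adjusted p = 0.00490, kept in 6 of 6 cases. Other probe sets of the same symbol gave 2.71 ± 0.26, 2.65 ± 0.26 and 0.80 ± 0.28 (SE), so that 4 probe sets shared the direction and not the size. Of 15 measured macrophage markers 0 were called, and their median was 0.26. Of these markers 13 lay above 0, and the part of macrophages in the rise of Fabp5 was not tested.

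Slc17a4, an anion transporter, rose from 6.84, 6.93 and 7.52 to 8.72, 9.01 and 7.98 (1.47 ± 0.26 (SE), adjusted p = 0.0492). Ces2g, a carboxylesterase, rose from 7.61, 7.53 and 8.13 to 9.08, 9.08 and 8.81 (1.23 ± 0.19 (SE), adjusted p = 0.0305). For the clotting factor gene F11 the rise was 0.92 ± 0.15 (SE), adjusted p = 0.0349, and 1 gene with a provisional name rose by 0.77 ± 0.14 (SE).

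Among the falling genes in no list, Cgref1, a calcium-binding growth regulator, went from 6.32, 6.06 and 6.02 to 4.79, 5.0 and 4.85 (−1.26 ± 0.21 (SE), adjusted p = 0.0370). Abhd2, a lipid hydrolase, went from 9.84, 9.91 and 9.83 to 8.81, 8.56 and 8.45 (−1.25 ± 0.17 (SE), adjusted p = 0.0142). Snora34, a small nucleolar RNA, went from 9.36, 9.27 and 8.87 to 7.55, 8.36 and 8.0 (−1.19 ± 0.19 (SE), adjusted p = 0.0370). The laminin chain Lamb3 had −1.03 ± 0.13 (SE) and Retsat, which saturates retinol, had −0.94 ± 0.14 (SE). The other falls were smaller, from −0.77 for Odf3b, an outer dense fibre protein, to −0.64 for Fpgs, which adds glutamates to folate. Between them lay the pseudogene Spin2-ps1 at −0.73 and 1 gene with a provisional name at −0.68.

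Testing only the 11501 genes with a mean level of at least 5 raised the number of called genes to 71 (0.617%), of which 40 rose and 31 fell. All 35 genes were among them. The 36 additions had adjusted p-values of 0.0521 to 0.134 over all genes, and 26 of them lay above 0. Among them were 2 further falling genes of the oxidation lists and 6 further rising genes of the synthesis lists. On the falling side were Crat, the carnitine acetyltransferase (−0.74 ± 0.14 (SE)), Hsd17b11, a droplet-associated steroid dehydrogenase (−0.62 ± 0.12 (SE)), Pex11a and Acaa1b. On the rising side were Acaca, Pklr, Khk, Msmo1, Dhcr7, Lpin1 and Mid1ip1, a partner of Thrsp (0.80 ± 0.17 (SE)). Pygl, the liver glycogen phosphorylase, also passed there, at 8.56, 8.45 and 8.79 against 9.36, 9.45 and 9.38 (0.80 ± 0.15 (SE)). With this filter 11 of 75 genes of the oxidation lists fell and 14 of 50 of the synthesis lists rose.

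The same extract on the high-fat diet was measured on other arrays. There 8 genes passed the threshold (0.0361%), and 4 of them were also called on the low-fat diet, namely Plin4, Slc27a1, Gpat3 and F11. Of the 35 genes, 34 had the same sign on both diets, beside 55.0% of all genes, and Fdps was the exception at −0.05 ± 0.23 (SE) on the high-fat diet. The correlation of both extract effects across the 22180 genes, which are not independent replicates, was 0.208.

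The falling genes kept more of their size on the high-fat diet than the rising ones did. The median of the 21 falling genes was −1.03 on the low-fat and −0.49 on the high-fat diet, and the median of the 14 rising genes was 1.38 and 0.28. An unadjusted p under 0.05 on the high-fat diet was reached by 16 of the 21 and by 5 of the 14, beside 1550 of all 22180 genes. Since the genes were chosen for their change on the low-fat diet, a smaller value elsewhere is partly fixed by that choice.

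Plin4 went against this pattern, with −2.10 ± 0.17 (SE) on the high-fat diet. Its high-fat controls were at 8.21, 8.47 and 7.80 and its high-fat MSX arrays at 6.00, 6.02 and 6.15, so that the MSX groups of both diets overlapped while the controls did not. Slc27a1 (−0.97 ± 0.11 (SE)), Gpat3 (−0.86 ± 0.11 (SE)) and F11 (1.03 ± 0.15 (SE)) were close in size to their low-fat values, with differences (low-fat minus high-fat change) of −0.15, 0.07 and −0.11. Fasn was at 9.19, 8.42 and 8.42 in the high-fat controls and 8.65, 8.79 and 8.62 with MSX, a change of 0.01 ± 0.21 (SE). For Sqle it was 0.05 ± 0.21 (SE) and for Thrsp 0.10 ± 0.33 (SE).

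The test of the difference between both extract effects called 0 of 22180 genes (0%). At an unadjusted p under 0.05 limma found 1130 genes, about what 5% of the genes gives (1109). The genes of lowest p with a larger value on the low-fat diet were Fasn (difference 1.53 ± 0.29 (SE)), Cyp51 (0.83 ± 0.16 (SE)) and the microRNA gene Mir669m-1 (1.45 ± 0.29 (SE)). On the other side were Igfbp2, a binding protein of insulin-like growth factors (−1.09 ± 0.21 (SE)), Csta1, a protease inhibitor (−1.65 ± 0.30 (SE)), and 1 gene with a provisional name. All 6 had an adjusted p of 0.664, so that no gene is shown here to respond differently on the 2 diets.

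For many called genes the low-fat controls stood apart from all other arrays. They lay below the 9 other arrays in 9 of the 14 rising genes, beside 0.771% of all genes, and above them in 9 of the 21 falling genes, beside 0.893%. The rule that called these genes used the same controls, so that these counts are a description. Cyp51 shows the pattern, with 6.02 to 6.21 in the low-fat controls, 7.10 to 7.33 in low-fat MSX, 7.36 to 7.48 in the high-fat controls and 7.58 to 7.85 in high-fat MSX. Igfbp2 shows it on the falling side without a call, with 10.91 to 11.12 in the low-fat controls, 10.15 to 10.73 in low-fat MSX and 9.66 to 10.16 in the 6 high-fat arrays.

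**Figure D4:**
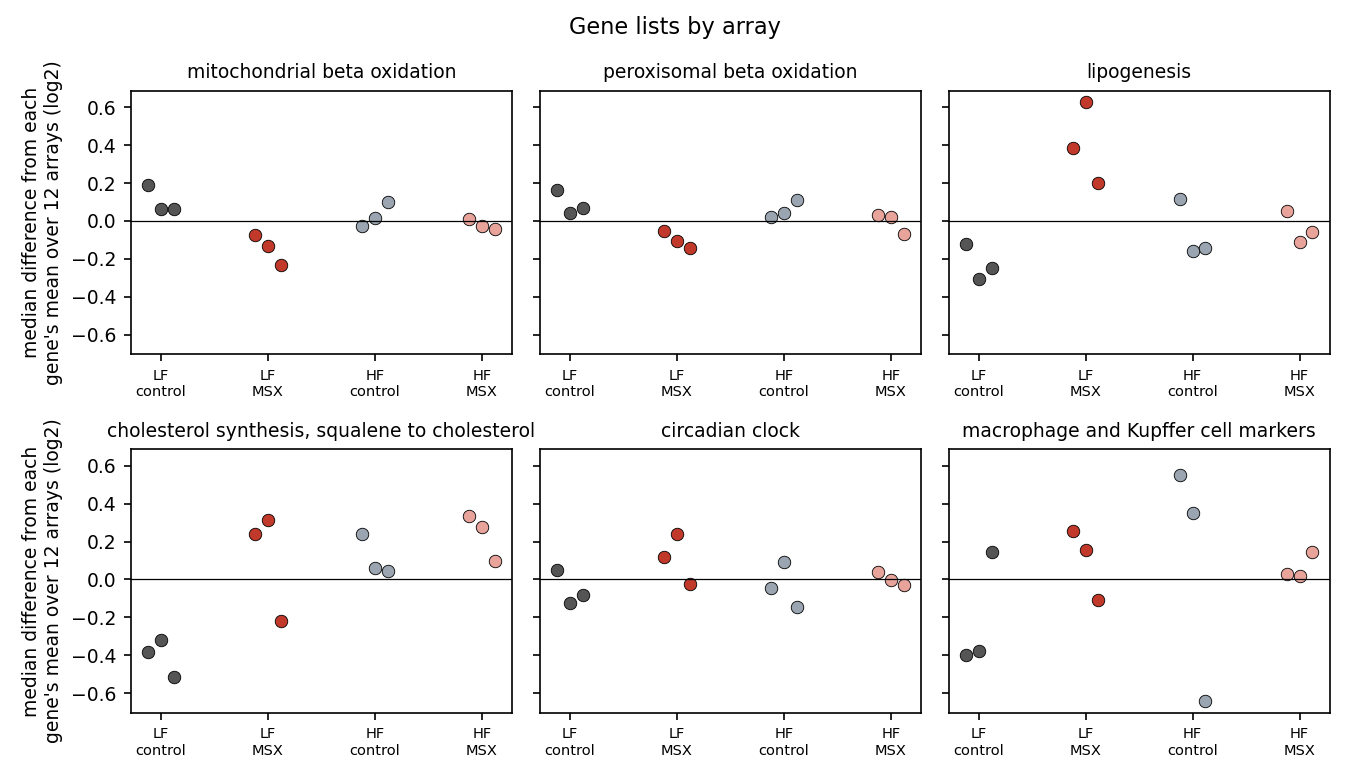
Deviation of a gene in 1 array from its own 12-array mean, as the median over the genes of a list (y axis, log2), 1 point per array, with LF for low-fat and HF for high-fat. The lipogenesis median was −0.30 to −0.12 in the low-fat controls and 0.20 to 0.63 in low-fat MSX, and the mitochondrial oxidation median was 0.06 to 0.19 and −0.23 to −0.07.

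The separation of the low-fat groups was also seen array by array. The median deviation of the 17 mitochondrial oxidation genes was 0.19, 0.06 and 0.06 in the controls and −0.07, −0.13 and −0.23 with MSX. That of the 22 lipogenesis genes was −0.12, −0.30 and −0.25 in the controls and 0.38, 0.63 and 0.20 with MSX. For the 11 genes from squalene to cholesterol it was −0.38, −0.32 and −0.52 against 0.24, 0.31 and −0.22. MSX replicate 3 thus had the lowest synthesis and the lowest oxidation medians of its group. On the high-fat diet the medians of these lists were −0.01 for mitochondrial oxidation, 0.10 for lipogenesis and 0.09 from squalene to cholesterol.

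**Figure D5:**
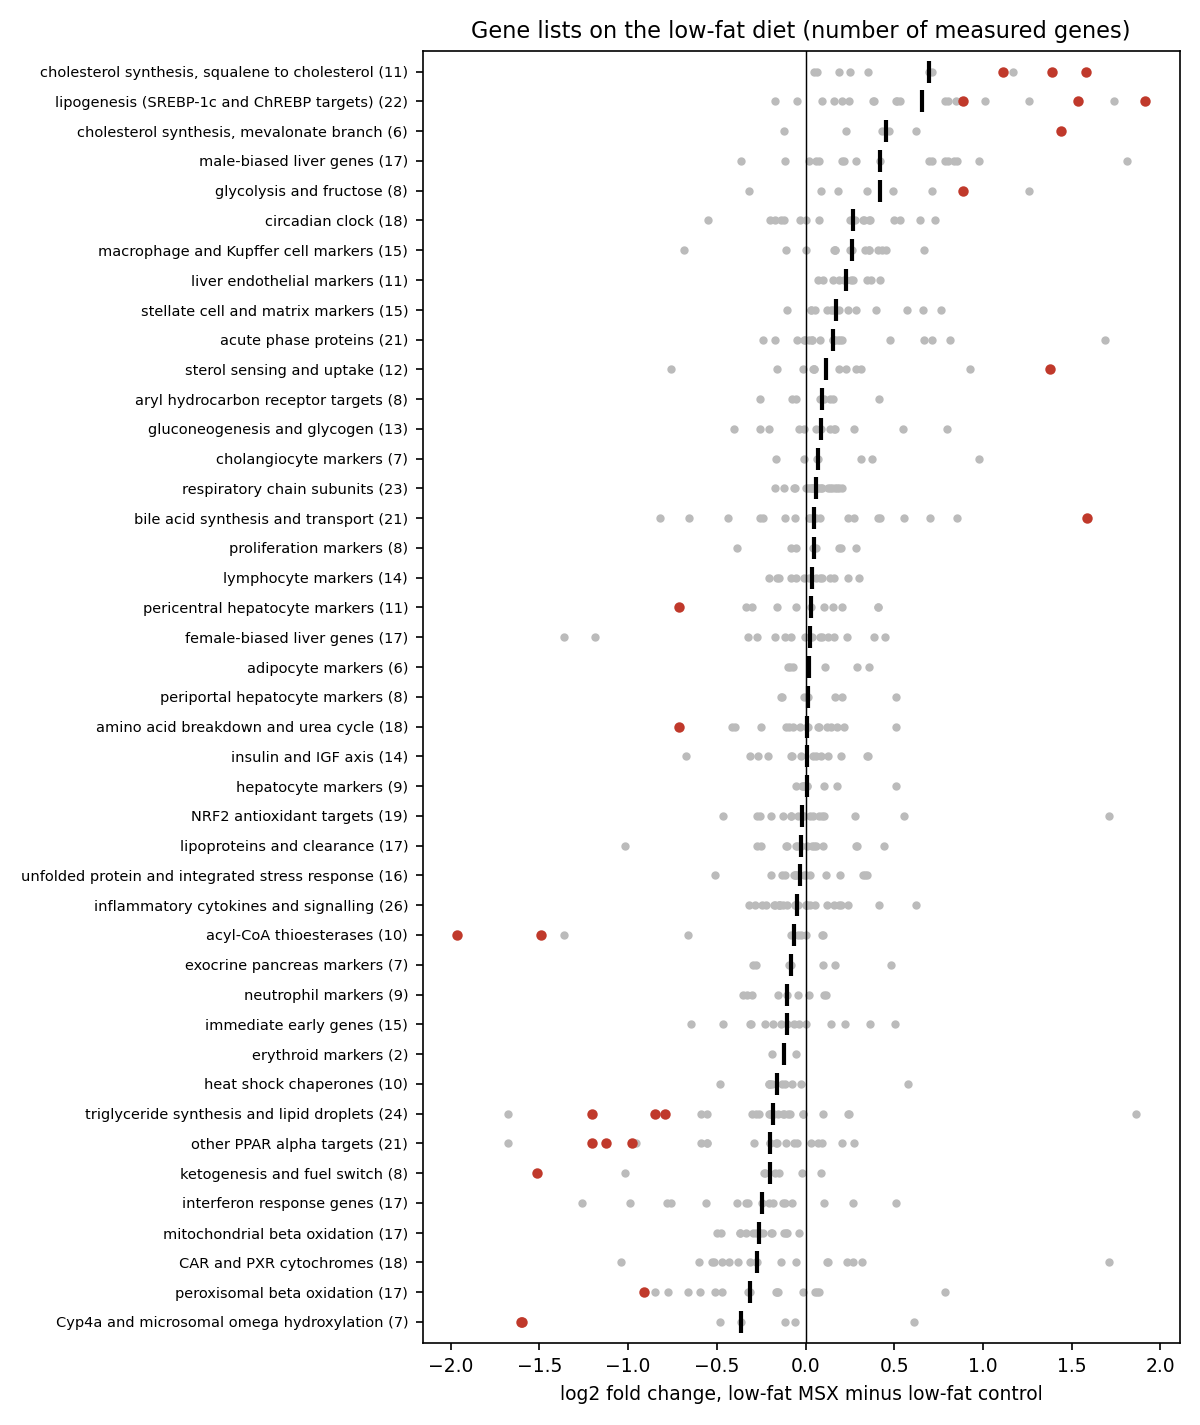
Log2 fold change on the low-fat diet (x axis) of each measured gene in 43 gene lists, ordered by the list median (black bar), with genes past the threshold in red and other genes in grey. Red points are found in 14 lists, on the right in the lipid synthesis lists and on the left in the lists of fatty acid oxidation and lipid droplets.

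In the other lists the genes moved less or without calls. Interferon response genes had 0 of 17 called and a median of −0.24, with 14 below 0. Ifit1, an antiviral effector, was at 7.19, 7.67 and 8.01 against 6.92, 6.53 and 5.64 (−1.26 ± 0.29 (SE), adjusted p = 0.150), and Rsad2 had −0.99 ± 0.22 (SE), adjusted p = 0.129. Zbp1 and Igtp, both interferon-induced and outside that list, passed among the genes with a mean of at least 5 and not over all genes, at −0.91 ± 0.18 and −0.83 ± 0.17 (SE).

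Male-biased liver genes had 0 of 17 called and a median of 0.42, against 0.83 on the high-fat diet. Hsd3b5, a steroid dehydrogenase of male liver, was at 8.98, 8.94 and 8.71 against 9.96, 9.57 and 10.06 (0.98 ± 0.23 (SE), adjusted p = 0.164), and it rose on the high-fat diet by 2.21 ± 0.23 (SE), adjusted p = 0.00239. Gstm3, a glutathione transferase in the lists of xenobiotic and antioxidant genes, had 1.71 ± 0.36 (SE), adjusted p = 0.113. The 16 measured genes of the unfolded protein and integrated stress response had 0 calls and a median of −0.03.

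Clock genes matter here because lipogenic and oxidation genes cycle through the day. Of 18 measured, 0 were called and the median was 0.27, with 8 at an unadjusted p under 0.05, a level that 1786 of all 22180 genes reached in limma. Arntl, which peaks opposite to most of the others, was at 5.43, 5.43 and 5.77 against 4.68, 5.23 and 5.06 (−0.55 ± 0.19 (SE), adjusted p = 0.445). Bhlhe41, a clock repressor, was at 5.41, 5.33 and 5.56 against 6.15, 6.30 and 5.80 (0.65 ± 0.15 (SE), adjusted p = 0.144), and Dbp had 0.36 ± 0.16 (SE). The median deviation of the list was 0.05, −0.12 and −0.08 in the controls and 0.12, 0.24 and −0.02 with MSX, which overlapped. Its part in the changes of the lipid genes was not tested.

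Markers of other liver cells had 0 calls, and the medians of some of their lists were shifted. The 11 endothelial markers all lay above 0 with a median of 0.23, the 15 macrophage markers had 13 above 0 and a median of 0.26, and the 15 stellate and matrix markers had 14 above 0 and a median of 0.17. The mean level of the macrophage list was 6.79 to 7.28 in the controls and 6.99 to 7.28 with MSX, and that of the endothelial list was 7.71 to 8.10 and 7.95 to 8.20, so that both overlapped. That of the stellate list was 6.47 to 6.62 and 6.63 to 6.93, which did not overlap and nearly met. Lrat, which stores retinol in stellate cells, had 0.76 ± 0.18 (SE), adjusted p = 0.196, Marco had −0.68 ± 0.22 (SE), adjusted p = 0.434, and Vsig4 had 0.67 ± 0.36 (SE). The part of these shifts in the results was not tested.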

How the data were processed

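Liver RNA was measured on Affymetrix mouse arrays, 1 per sample. Per the submitters' processing notes, the authors used the Transcriptome Analysis Console for the deposited log2 values of probe sets. For its version, normalization and summarization, nothing is given in the sources used here. Values were taken unchanged. Of 41345 probe sets, 23521 had 1 symbol in the platform annotation, 1814 had several and 16010 were unlisted. The probe set of highest mean over 12 arrays stood for each of 22180 genes, with no filter on dim genes.

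Group means of all 4 groups were fitted with limma 3.58.1 in R 4.3.3 (lmFit, eBayes, two-sided; 8 residual and 5.18 prior degrees of freedom), and p-values were adjusted by Benjamini-Hochberg over 22180 genes. Genes past an adjusted p of 0.05 are called "called". The fit was tested on simulated data. With 3 arrays against 3, an exact permutation test cannot go below 0.1. Nothing in the labels pairs replicate numbers, and same-numbered low-fat arrays deviated with correlations of −0.017, −0.047 and −0.065.

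The 43 gene lists came from general knowledge. Members and lists were chosen with earlier results of these data known. Named were all called genes, up to 4 genes of lowest p per list, a panel of 40 genes (32 measured, 8 not used), the lowest-p differences between diets and genes that the filter added; Cd36, Elovl6 and Me1 were chosen after their values were seen. Promoter windows were matched by symbol (10 of 14 rising, 17 of 21 falling genes). Alternatives were other fits, scalings, probe set choices, a filter on dim genes and leaving out arrays.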

Additional observations from a re-analysis of the deposited data

Results flagged for a closer look

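Of the probe sets that the platform annotation gives several symbols or none, 2 passed the threshold for low-fat MSX against low-fat control when all 41345 probe sets were adjusted together. Both carry several symbols, which are Txnip and Gm15441 for 17408067 and Cyp4a10 and Cyp4a31 for 17417223. Neither probe set stood for a gene in the report, where Cyp4a31 was measured by another probe set. Probe set 17408067 was at 9.09, 8.04 and 7.85 in the controls and 5.24, 4.78 and 5.80 with MSX, a change of −3.06 ± 0.33 (SE) with an adjusted p of 0.00938. Probe set 17417223 was at 12.75, 12.88 and 12.72 against 11.74, 11.50 and 11.06, a change of −1.35 ± 0.18 (SE), adjusted p = 0.0397. In both, the groups did not overlap, and on the high-fat diet the changes were −0.88 and −0.47.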

How the results depend on the processing

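The numbers of called genes (35 in all, 14 higher and 21 lower) moved with the processing. Testing only genes with a mean of at least 5 gave 71 in all and 40 higher, and a trended, robust prior gave 77 (40 higher, 37 lower; 32 shared). A fit on the 6 low-fat arrays alone gave 10 (3 higher, 7 lower, 9 shared), and averaging the probe sets of a gene gave 23 (13 lower). Adjusting all probe sets together, an alternative chosen after seeing the data, gave 10 probe sets, of which 2 carry several symbols. With the replicate number as a block the fit gave 20 (9 higher, 11 lower; 18 shared). Median centring gave 28, quantile normalization 32 and the probe set of highest variance 24, all of them among the 35. Leaving out 1 low-fat array gave 6 to 28 in all, 2 to 17 higher and 4 to 12 lower. The count for the difference between diets was 0 to 1 with 1 array left out; the 1 gene, without high-fat MSX replicate 1, was Cyp2c39 (difference 2.04, adjusted p = 0.0400, against 1.65 and 0.664 with all arrays). No called gene changed direction. With 1 array left out, Srebf2 ran from −0.10 to 0.19 and Ppara from −0.12 to 0.078, so that neither has a settled sign. The number of arrays, 3 per group, limits the precision.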

Other observations

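The other gene lists given here had medians from −0.28 to 0.16 in low-fat MSX and no called gene. The subunits of the respiratory chain did not share the lower values of the mitochondrial oxidation genes: 23 were measured, 19 lay above 0 and the median was 0.06. Plasma lipoprotein genes had a median of −0.03 over 17 measured, with the lowest value in Apoa4, an apolipoprotein that responds to liver fat, at 12.85, 13.15 and 12.71 in the controls and 11.90, 12.29 and 11.48 with MSX (−1.02 ± 0.34 (SE), adjusted p = 0.434). Acute phase proteins had 16 of 21 above 0 and a median of 0.16. Among them Apcs, the serum amyloid P component, was at 7.13, 7.13 and 7.46 against 8.26, 7.77 and 8.14 (0.81 ± 0.33 (SE), adjusted p = 0.564). Cytochromes and other targets of the xenobiotic receptors CAR and PXR had 12 of 18 below 0 and a median of −0.28. Alas1, the first enzyme of heme synthesis, had −0.60 ± 0.22 (SE), adjusted p = 0.492.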
